A study of Mus musculus with 8 samples.

Results

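*Eef1a2* and *Eef1a1* encode the isoforms of elongation factor eEF1A, the protein that brings aminoacyl-tRNA to the ribosome. *Eef1a1* is transcribed in most cell types. *Eef1a2* is the isoform of adult skeletal muscle, heart and neurons, where it takes over as *Eef1a1* declines, and mice of the *wasted* strain, which lack *Eef1a2*, lose muscle and motor neurons after weaning. *Eef1a2* was 1 of 19465 genes of the mouse probe set and was selected on its UMI counts in these sections. Its levels and fold changes, and those of *Eef1a1*, are therefore given as a description and were not tested.

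Gene expression had been captured on 8 formalin-fixed, paraffin-embedded Visium sections of mouse diaphragm, in which a slide carries spots 100 µm apart and each spot pools several cells or parts of cells. Control embryos, which kept at least 1 expressing allele of CaV1.1 and of β-catenin, gave 3 sections at E14.5 and 2 at E18.5. The CaV1.1 -/- (dysgenic) genotype, which lacks the calcium channel and voltage sensor of skeletal muscle everywhere in the embryo, gave 1 section at E14.5 and 1 at E18.5 (CaV1.1 KO). The bCat cKO genotype, in which HSA-Cre removes floxed β-catenin from skeletal muscle fibers and leaves other cells with it, gave 1 section at E18.5 (β-cat cKO). With 1 section per mutant group, a mutant section was assumed to vary like the controls, and whether sections came from separate litters was not stated. p-values for the other genes therefore measure only the spread between these sections.

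Between 683 and 3460 spots per section held at least 1000 UMIs (counted molecules). Of these, 491 to 3092 were muscle spots by the mean log-normalized level of 9 muscle genes (*Acta1*, *Actn2*, *Des*, *Myl1*, *Mylpf*, *Neb*, *Ryr1*, *Tnnt3* and *Ttn*). The threshold was set within each section, so it differs between sections. All 9 were detected in the muscle spots of every section. *Cacna1s*, the gene of CaV1.1, fell by 1.53 on the log2 scale in the CaV1.1 KO at E18.5 (adjusted p = 0.00133, edgeR). At E14.5 it was not called lower in the CaV1.1 KO (-0.30, adjusted p = 0.34, edgeR), at 13.4 scaled CPM (counts per 1000000 UMIs after TMM scaling, which sets the fold of most genes near 0) against 14.96 to 18.4 in the controls. *Ctnnb1* was at 96.2 scaled CPM in the β-cat cKO and 97.4 and 105 in its controls. The Y-linked initiation factor *Eif2s3y* had no UMI in E14.5 control 1 and in the CaV1.1 KO at E18.5, and 0.040 scaled CPM in the CaV1.1 KO at E14.5. In the other 5 sections it lay between 49.0 and 82.2. At E18.5 the CaV1.1 KO and the absence of this Y-linked transcript therefore cannot be told apart.

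The probe assay counts the paralogs separately only where their transcripts differ. In GRCm38 *Eef1a2* (ENSMUSG00000016349) lies on the minus strand of chromosome 2 from 181147653 to 181157014, and *Eef1a1* (ENSMUSG00000037742) on the minus strand of chromosome 9 from 78478449 to 78489151. Each has 8 exons in the transcript used here, of which 7 carry coding sequence. The coding sequences, 1392 and 1389 bases long, were identical at 79.96% of 1392 aligned positions, and the longest run without a difference was 23 bases. The 50-base stretches of a single exon with the most and the fewest differences are shown to give the range within the coding sequence. Untranslated and exon-spanning stretches were not compared. Capitals mark the bases that differ.
Most different, exon 6 of *Eef1a2*, coding strand of chr2:181149681-181149730: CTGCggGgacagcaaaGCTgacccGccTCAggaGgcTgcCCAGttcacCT
Most different, exon 6 of *Eef1a1*, coding strand of chr9:78479283-78479332: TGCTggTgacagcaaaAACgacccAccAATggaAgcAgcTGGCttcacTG
Least different, exon 2 of *Eef1a2*, coding strand of chr2:181155276-181155325: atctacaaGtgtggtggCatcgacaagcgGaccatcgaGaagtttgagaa
Least different, exon 2 of *Eef1a1*, coding strand of chr9:78480524-78480573: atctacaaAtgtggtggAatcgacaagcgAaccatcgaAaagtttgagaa
The first stretch held 20 differences and the second 4. Where the probes lie was not given in the sources used here. In E14.5 muscle the *Eef1a2* count came to between 19.7 and 120 per 1000000 *Eef1a1* UMIs, which bounds from above how many *Eef1a1* transcripts were counted as *Eef1a2*.

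*Eef1a2* went from near the limit of detection at E14.5 to a well measured transcript at E18.5. In muscle spots of the E14.5 controls it had 11, 12 and 3 UMIs, or 0.532, 0.407 and 0.234 UMIs per 1000000 UMIs of these spots (CPM, unscaled). In the E18.5 controls it had 38275 and 34397 UMIs, or 505 and 547 CPM. The groups did not overlap, at 0.391 ± 0.15 CPM (SD, n = 3) against 526 ± 29.4 CPM (SD, n = 2). The ratio of pooled levels was 1268, with a 95% counting interval of 866 to 1942. After TMM scaling the log2 fold change was 11.02 (SE 0.19), the highest of the 14832 genes tested. SE from this fit is the absolute log2 fold change over the square root of the edgeR F statistic. With so few UMIs at E14.5 it understates the counting error, which the interval above gives. Of these, 33.2% were higher and 32.3% lower at E18.5 at an adjusted p under 0.05, or 65.6% in all. Muscle spots also held more muscle RNA at E18.5: the 9 muscle genes together went from 23980 to 130167 CPM. Per 10000 UMIs of these genes *Eef1a2* was still 250 times higher, at 40.4 against 0.162. In spots, fewer muscle cells and less RNA per muscle cell cannot be told apart.

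**Figure D1:**
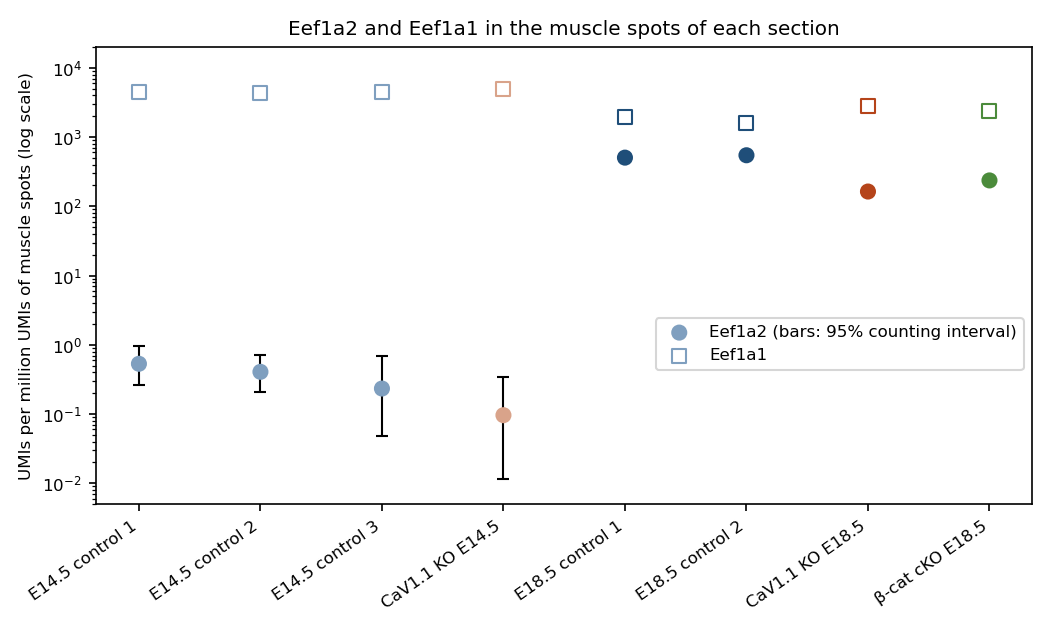
*Eef1a2* (filled circles, with 95% exact Poisson intervals for counting error) and *Eef1a1* (open squares) in CPM of the muscle spots of each of the 8 sections, on a log axis. *Eef1a2* lies below 1 in all 4 sections at E14.5 and between 164 and 547 at E18.5, while *Eef1a1* stays between 1618 and 4885.

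*Eef1a1* moved the other way by a far smaller factor. It stood at 4451, 4331 and 4410 CPM in the E14.5 controls and at 1952 and 1618 CPM in those at E18.5, without overlap. On the TMM scale its log2 fold change was -0.58 (SE 0.13), ranking 3842 of 14832 from the lowest. *Eef1a2* UMIs made up 0.0089% ± 0.0034 (SD, n = 3) of the UMIs of both genes at E14.5 and 22.9% ± 3.3 (SD, n = 2) at E18.5. This share is not a molar ratio, since the number of probes per gene was not given in the sources used here, and only its change between sections can be read.

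The map of *Eef1a2* by spot shows the change across the tissue. With every muscle spot thinned to 5000 UMIs, and 4 to 138 shallower spots per section left out, *Eef1a2* was found in 0.398%, 0.190% and 0.353% of muscle spots in the E14.5 controls and in 90.4% and 90.7% in those at E18.5. Unthinned, the shares were 2.0%, 2.1% and 0.516%, then 99.3% and 99.9%. *Eef1a1* was found in all 100% of thinned muscle spots in every section. The E18.5 muscle was thus positive nearly throughout.

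**Figure D2:**
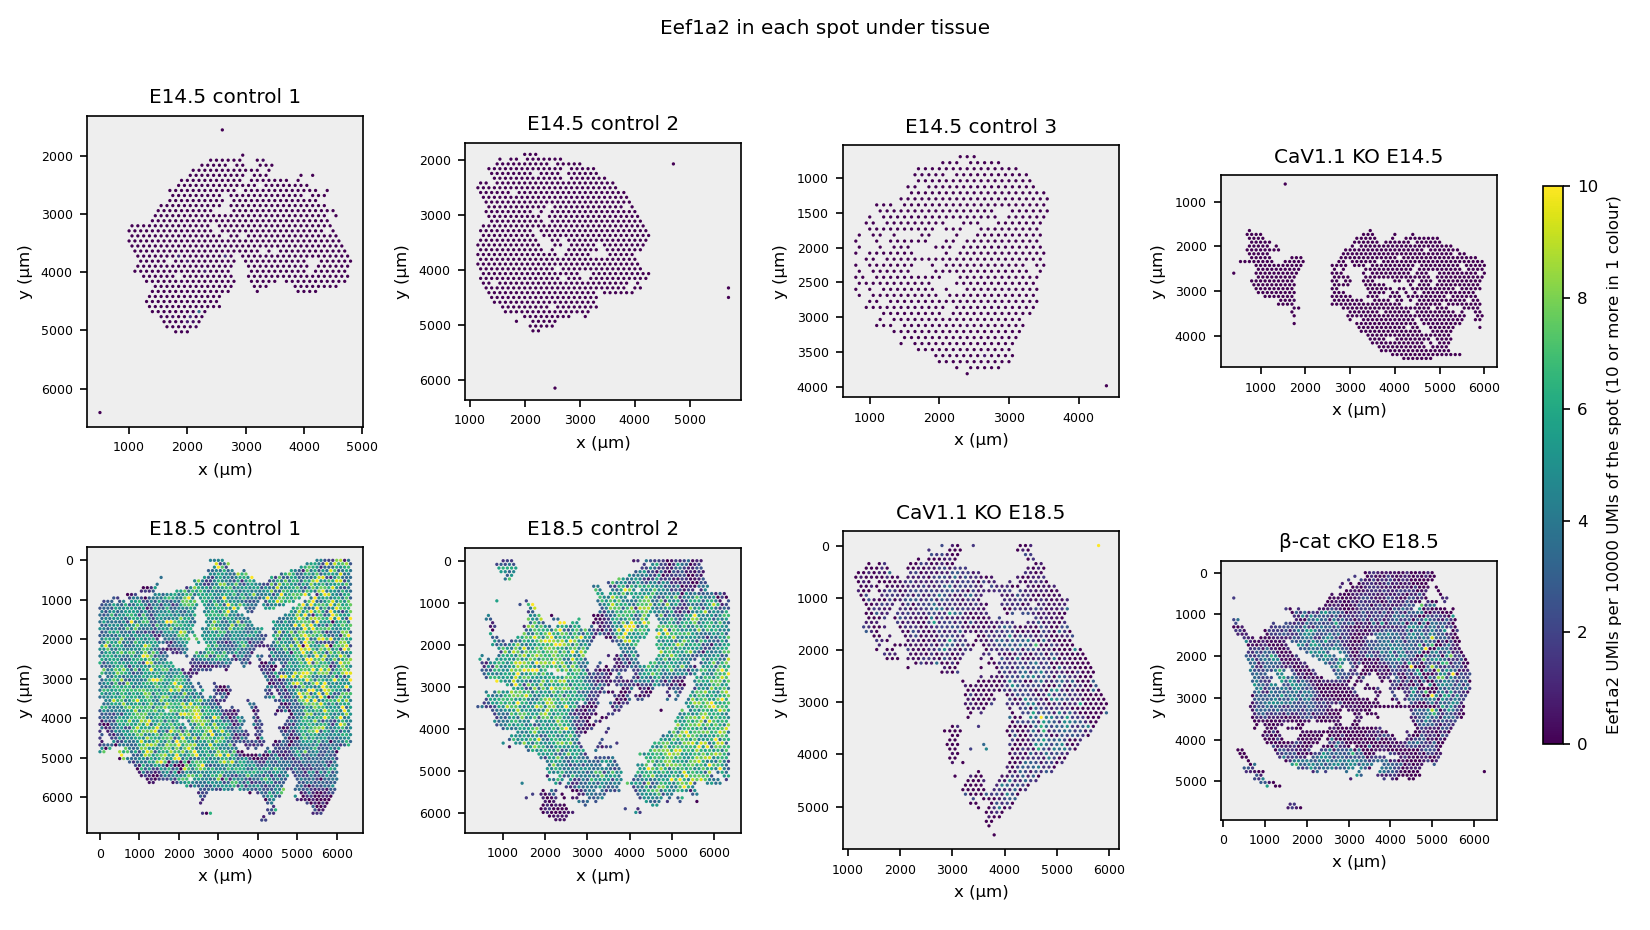
*Eef1a2* UMIs per 10000 UMIs in each spot of the 8 sections, with the axes giving position on the slide in µm and all values of 10 or more in a single colour. The E14.5 sections are near 0 throughout, the E18.5 controls are positive over the muscle, and the CaV1.1 KO and β-cat cKO sections at E18.5 are dimmer.

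Both mutants had less *Eef1a2* at E18.5 than either control. The CaV1.1 KO section held 164 CPM (2665 UMIs, 95% interval 157 to 170) and the β-cat cKO section 237 CPM (11424 UMIs, 232 to 241), against 505 and 547 CPM in the controls, which serve both comparisons. The TMM-scaled log2 fold changes were -2.22 (SE 0.18) and -1.37 (SE 0.17). Counting from the lowest, these ranked 205 and 471 among 14832 genes. At an adjusted p under 0.05, 15.2% of genes were lower and 10.6% higher in the CaV1.1 KO, and 5.62% lower and 3.18% higher in the β-cat cKO. The muscle genes were lower too, at 71384 CPM in the CaV1.1 KO and 105199 CPM in the β-cat cKO. Per 10000 UMIs of these genes *Eef1a2* was nearly the same in both mutants, 22.9 (22.1 to 23.8) in the CaV1.1 KO and 22.5 (22.1 to 22.9) in the β-cat cKO. The controls had 39.3 and 41.4. Markers of other cells differed as well, in both directions. In the CaV1.1 KO and the β-cat cKO 4 fibroblast genes summed to 7425 and 7393 CPM, against 4744 and 6610 CPM in the controls. In the same order, 4 Schwann cell genes summed to 108 and 25.4 CPM against 25.8 and 26.6 CPM. Lower in both mutants were 4 endothelial genes, at 362 and 308 CPM against 441 and 398 CPM. Also lower were 4 cartilage genes, at 7.12 and 30.7 CPM against 895 and 56.1 CPM. The 3 smooth muscle genes split, at 118 and 457 CPM against 241 and 242 CPM. Their part in the result was not tested. Thinned to 5000 UMIs, 52.0% and 62.6% of muscle spots held *Eef1a2* in the CaV1.1 KO and the β-cat cKO.

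*Eef1a1* was higher in these sections before scaling. Its level was 2800 CPM in the CaV1.1 KO and 2420 CPM in the β-cat cKO, above both controls. On the TMM scale its log2 fold changes were 0.11 (SE 0.17) and 0.22 (SE 0.17), within 2 SE of 0. The *Eef1a2* share of both genes was 5.52% in the CaV1.1 KO and 8.91% in the β-cat cKO, against 20.6% and 25.3% in the controls. At E14.5 the CaV1.1 KO held 2 *Eef1a2* UMIs in its muscle spots (0.0963 CPM) where the 3 controls held 26. The ratio was 0.233, with a counting interval of 0.0268 to 0.932 that leaves out the spread between sections. The muscle genes were lower there too, at 16235 CPM against 21642 to 27362 CPM in the controls. Per 10000 UMIs of these genes *Eef1a2* was at 0.059 (0.0072 to 0.214) in the CaV1.1 KO. The controls had 0.195, 0.188 and 0.102, with intervals that overlap it. Scaled to the muscle genes its log2 fold change was -1.53 (SE 0.94), within 2 SE of 0. A lower level at E14.5 was therefore not resolved on that scale. *Eef1a1* was at 4885 CPM in the CaV1.1 KO at E14.5, above the 3 controls.

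The size of each fold depended on the scaling, since a few muscle transcripts take a large share of the UMIs at E18.5. With unscaled library sizes the median of all genes moved to -0.73 between the stages, 0.54 in the CaV1.1 KO at E18.5 and 0.21 in the β-cat cKO. On that scale *Eef1a2* gave log2 fold changes of 10.31, -1.68 and -1.15. Scaled to the 9 muscle genes, where the medians were -3.19, 1.40 and 0.52, it gave 7.87, -0.82 and -0.84. The sign of *Eef1a2* was the same on each scale. That of *Eef1a1* was too, but both scales moved the median of all genes the way its value already pointed. Its constant sign therefore says nothing on its direction. Calls over all genes split differently: at E18.5, 41.1% of called genes were higher in the CaV1.1 KO after TMM scaling, 90.6% with unscaled libraries and 99.2% with muscle-gene scaling. For the β-cat cKO the shares were 36.1%, 79.9% and 94.0%, for the stages 50.7%, 20% and 1.5%, and for the CaV1.1 KO at E14.5 25.6%, 26.5% and 96.8%.

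In each E18.5 section *Eef1a2* had more CPM in muscle spots than in spots outside muscle. In the controls it was 169 and 128 CPM in spots outside muscle, and the log2 ratio of muscle to these spots was 1.83 ± 0.36 (SD, n = 2). Inside muscle the level went up with distance from other tissue in both controls. In E18.5 control 1 it was 342 CPM within 100 µm of a spot outside muscle, 447 and 490 CPM in the next bins of 100 µm and 547 CPM beyond 300 µm. In control 2 the same bins held 314, 419, 501 and 596 CPM. The β-cat cKO had the same order, from 137 to 279 CPM, whereas in the CaV1.1 KO the level went from 125 to 216 CPM and was 190 CPM in the innermost bin. Part of this slope was shared by the muscle genes. Per 10000 of their UMIs the bins of control 1 still ran from 32.6 to 41.0, and those of control 2 from 34.1 to 43.1. Those of the β-cat cKO ran from 19.0 to 24.1. In the CaV1.1 KO the rise was not kept, with 23.5, 22.7 and 25.4 in the outer bins and 20.8 in the innermost.

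**Figure D3:**
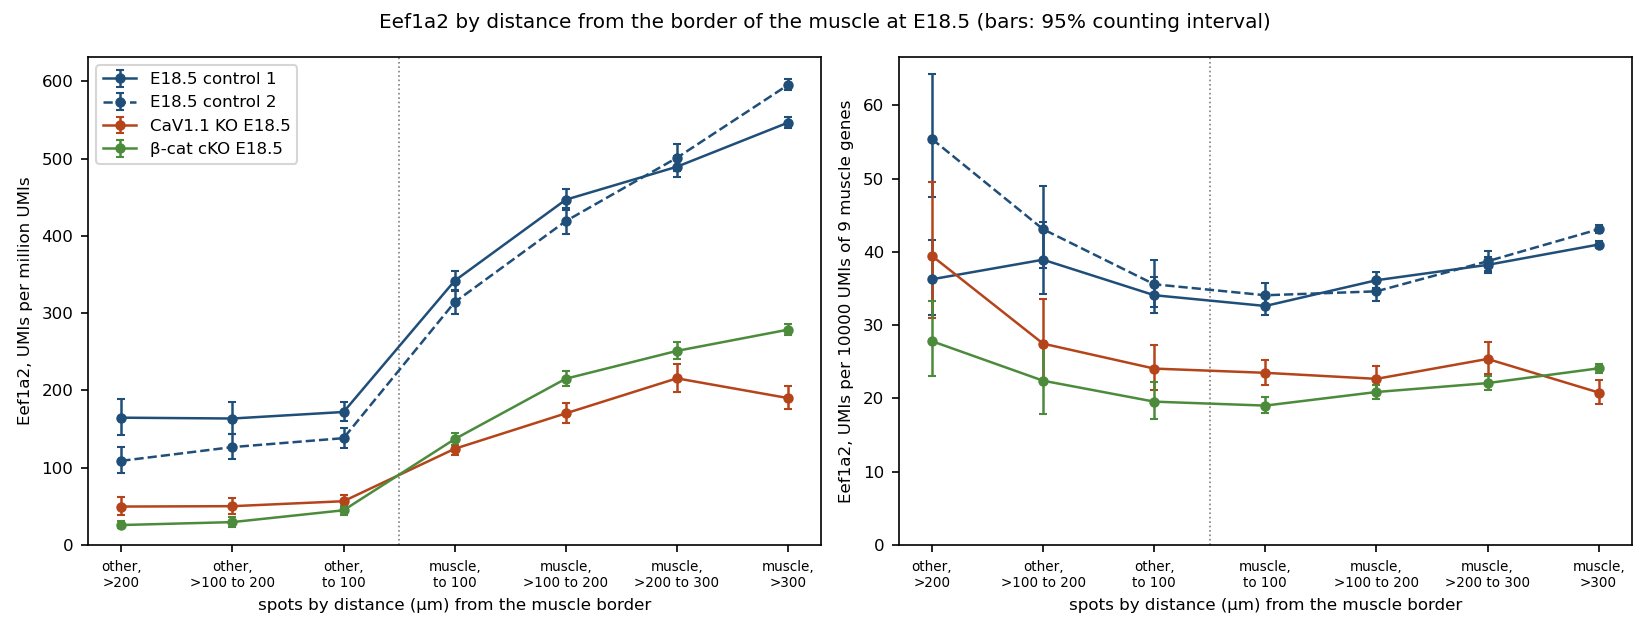
*Eef1a2* at E18.5 in bins of distance (µm) between a spot and the nearest spot of the other class, outside muscle on the left and inside on the right of the dotted line, as CPM (left panel) and per 10000 UMIs of the 9 muscle genes (right panel). Lines join the bins of a section and bars are 95% counting intervals. Inside muscle both controls climb from 342 and 314 to 547 and 596 CPM, and per 10000 muscle gene UMIs from 32.6 and 34.1 to 41.0 and 43.1. Beyond 200 µm outside muscle the controls lie at 36.3 and 55.4 per 10000 muscle gene UMIs.

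The level also differed between regions of the muscle. The 15% of muscle spots richest in 8 neuromuscular junction (NMJ) genes mark the end plate zone in the center of the fibers, and the 15% richest in 4 myotendinous junction (MTJ) genes mark the fiber ends at the periphery. In control 1 *Eef1a2* was at 449 CPM in the NMJ region, 543 CPM in the intermediate muscle and 390 CPM in the MTJ region, and in control 2 at 522, 584 and 392 CPM. Against intermediate muscle the TMM-scaled log2 fold change was -0.31 (SE 0.04) in the NMJ region and -0.69 (SE 0.04) in the MTJ region, each lower in 2 of 2 sections. Controls 1 and 2 gave -0.39 and -0.23 in the NMJ region and -0.64 and -0.74 in the MTJ region. These SE come from 2 sections with the section as a block. Without the block they were 0.11 and 0.08. Scaled to the muscle genes, the difference was -0.07 (SE 0.04) at the NMJ region and -0.29 (SE 0.04) at the MTJ region. An SE from 2 sections cannot settle whether the first differs from 0. *Eef1a1* differed by 0.01 (SE 0.05) and -0.13 (SE 0.03), the latter with its sign turned to 0.03 and 0.26 on the unscaled and muscle-gene scales. Both mutants had the same order of regions, with 160, 173 and 111 CPM in the CaV1.1 KO and 194, 264 and 150 CPM in the β-cat cKO. The regions were set by the same genes in each section, and whether the spots richest in NMJ genes lay in the center of the fibers in the mutants was not tested.

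Muscle spots were also ranked by 5 genes of fast fibers, such as *Myh4* and *Pvalb*, minus 6 genes of slow fibers, such as *Myh7* and *Tnnt1*. *Eef1a2* was higher in the 25% of spots richest in fast genes than in the 25% richest in slow genes, at 594 against 418 CPM in control 1 and 617 against 473 CPM in control 2. The log2 ratio was 0.44 ± 0.09 (SD, n = 2), and 0.20 per UMI of the muscle genes. In the CaV1.1 KO the values were 217 against 116 CPM and in the β-cat cKO 324 against 133 CPM. In the β-cat cKO the difference was present per 10000 muscle gene UMIs as well, at 25.4 against 16.1, while the CaV1.1 KO had 23.3 against 22.3.

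**Figure D4:**
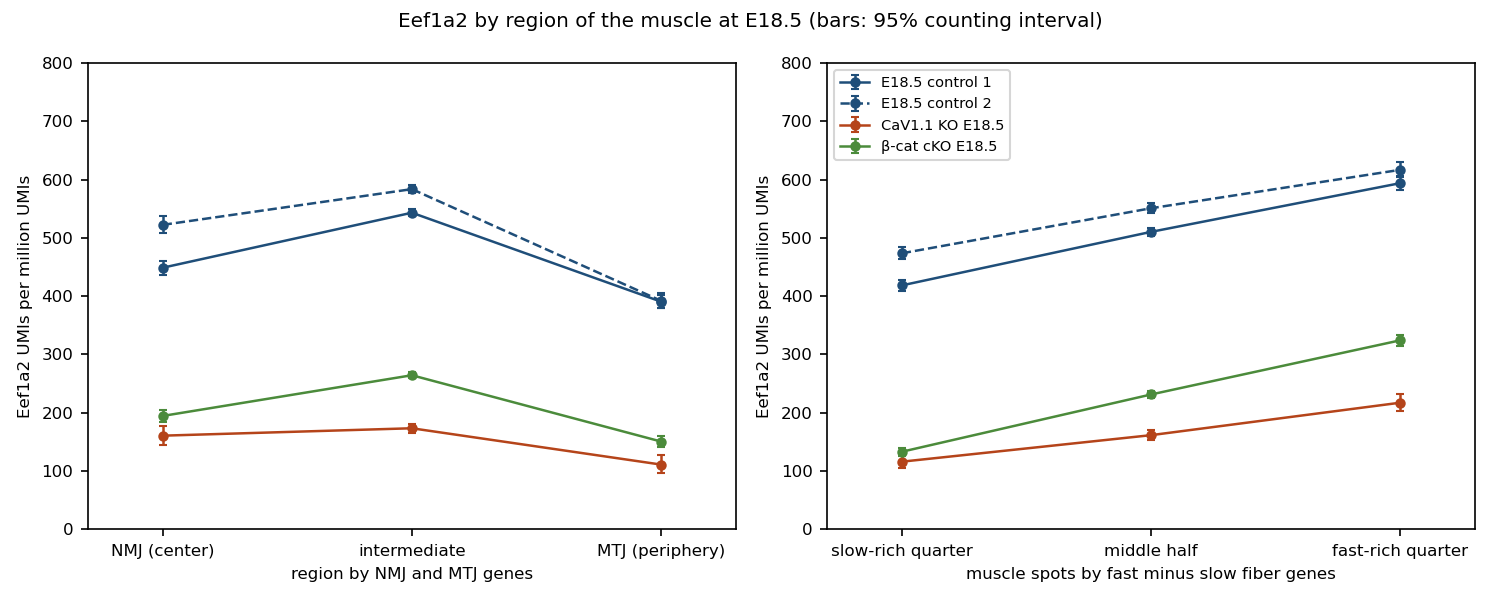
*Eef1a2* in CPM at E18.5 by region of the muscle (left panel, NMJ, intermediate and MTJ) and by the balance of fast and slow fiber genes (right panel), each section a line with 95% counting intervals. All 4 sections are lowest in the MTJ region and highest in the fast-rich spots, and both controls lie above both mutants in every class.

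At E14.5 the few UMIs allow little more than limits. The NMJ region held no *Eef1a2* UMI in any of the 3 controls, and a count of 0 allows up to 0.934, 0.752 and 1.81 CPM there. The MTJ region held 3, 5 and 0 UMIs, or 1.21, 1.22 and 0 CPM. The mean difference, NMJ minus MTJ region, was -0.81 ± 0.70 CPM (SD, n = 3), which rests on 8 UMIs. Within each section the 95% counting intervals of both regions overlapped.

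Outside muscle, spots rich in neuronal transcripts in some sections carried *Eef1a2* beyond what their muscle RNA accompanied. These spots were set apart after the values had been seen, as the 10 spots outside muscle with the highest sum of *Snap25*, *Stmn2*, *Syt1* and *Nefl* in each section. In E14.5 control 1 they held 35 of the 52 *Eef1a2* UMIs of the whole section, at 71.8 CPM (50 to 99.9), against 0.634 CPM in its other spots outside muscle. A single spot held 19 of these UMIs beside 876 of *Stmn2*, 119 of *Chga*, 79 of *Th* and 66 of *Dbh*, the last 3 being genes of sympathetic and adrenal chromaffin cells. *Cyp11a1*, of the adrenal cortex, was at 507 CPM in the 10 spots and 688 CPM in the other spots outside muscle of that section. Outside muscle in the other E14.5 sections it was at most 0.888 CPM, so these sections are not alike in the tissue beside the muscle. The neuronal genes together were at 4444 CPM in the 10 spots of E14.5 control 1. They were at 614 and 113 CPM in those of E14.5 controls 2 and 3, which held 1 and 0 *Eef1a2* UMIs. In the 10 spots of the CaV1.1 KO at E14.5 they were at 2346 CPM. Those spots held no *Eef1a2* UMI, and a count of 0 allows up to 7.46 CPM. The 2 spots of that section with the most *Eef1a2*, at 2 UMIs each, also lay outside muscle but not among the 10. They held 55 and 67 UMIs of *Stmn2*, 7 and 8 of *Th*, 3 and 10 of *Dbh* and 6 and 9 of *Chga*. In E18.5 control 2 the 10 spots held 317 CPM of *Eef1a2*, or 203 per 10000 muscle gene UMIs (167 to 246), against 36.3 in the other spots outside muscle and 41.4 in muscle. In E18.5 control 1 the ratio was 52.0 (38.8 to 68.2) against 34.8 (32.9 to 36.9) in the other spots outside muscle. The β-cat cKO had 46.5 (28.8 to 71.1) against 21.3 (19.3 to 23.4), and the CaV1.1 KO 27.7 (13.3 to 50.9) against 26.7 (24.2 to 29.5). Muscle was at 39.3, 22.5 and 22.9 in these sections. In control 1 and the CaV1.1 KO this lay inside the interval of the 10 spots. Inside muscle the 4 neuronal genes summed to 13.7 to 29.8 CPM in all 8 sections, with 18.4 and 29.8 CPM in the E18.5 controls and 13.7 to 16.9 CPM in those at E14.5.

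The genes whose log2 scaled level correlated most with that of *Eef1a2* over the 8 muscle sums were *Fech*, *Ndrg2*, *C2cd2*, *Igsf1*, *Retreg1*, *Tfeb*, *Clic5*, *Dtna*, *Mybpc2* and *Rcsd1*, with Pearson r from 0.997 to 0.999 among 6148 genes. All 8 points share the stage difference, which sets so high an r, and no p is given. The size of a change does not enter r. *Fech*, first by r, had 88.4 to 92.8 scaled CPM in the E14.5 controls and 158 and 155 in those at E18.5. *Eef1a2* had 0.188 to 0.464 and then 696 and 747. *Mybpc2*, which encodes fast myosin-binding protein C, had 2.61 to 2.76 scaled CPM in the E14.5 controls, 1213 and 1469 in those at E18.5, 410 in the CaV1.1 KO at E18.5 and 974 in the β-cat cKO. Across muscle spots, by the median r of the 8 sections, the leading genes were *Ckmt2* (0.28), *Tmem52*, *Acta1*, *Cox7a1*, *Slc25a4*, *Atp2a1*, *Atp5b*, *Tnnt3*, *Cox8b* and *Actn3*. At E14.5 r was at most 0.31 for any of these genes in a section, since nearly all spots were at 0. Over the 4 sections at E18.5 alone, a choice made after seeing the data, *Atp2a1* led with a median r of 0.58, followed by *Tnnt3*, *Ckm*, *Acta1* and *Ckmt2*. *Col1a1*, a collagen of fibroblasts, was lowest at -0.47. Spots of a section share its library, and depth and the share of muscle in a spot enter every r. *Eef1a1* had r between -0.20 and -0.01 with *Eef1a2* across the spots of these 4 sections.

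Between the stages the other genes listed here as cytosolic elongation factors gave log2 fold changes between -0.93 and 0.80. *Eef1e1* was listed with them by its symbol, and its part in elongation was not examined. Of the 7 tested, 1 rose and 3 fell, where 33.2% of all genes were higher and 32.3% lower. Their median log2 fold change was -0.43 beside -0.01 over all genes. *Eef2*, the translocase of the cycle, rose by 0.80 (SE 0.09, adjusted p = 0.00018 by edgeR), from 461 to 479 scaled CPM to 812 and 822. The value was 0.073 with unscaled libraries and turned to -2.39 when scaled to the muscle genes. *Eefsec*, which delivers selenocysteine tRNA, fell by 0.93, *Eef1e1* by 0.86 and *Eif5a2* by 0.52. Subunits *Eef1b2*, *Eef1d* and *Eef1g* of the exchange factor that recharges eEF1A with GTP gave -0.43, -0.04 and 0.03 and did not pass the test. Among 13 enzymes that modify eEF1A or eEF2, 3 rose and 6 fell, which is close to the 65.6% of all genes called. *Eef2k*, the kinase that inhibits eEF2, rose by 1.19 (0.47 unscaled and -1.98 scaled to the muscle genes) and *Dph6*, of the diphthamide pathway of eEF2, fell by 0.86, as did *Eef1aknmt*, a methyltransferase of eEF1A, by 0.73.

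The other steps of translation gave a mixed picture, to be read against 33.2% of all genes higher and 32.3% lower. All 4 mitochondrial elongation factors rose, by 1.27 for *Gfm1*, 1.03 for *Tufm*, 0.80 for *Tsfm* and 0.62 for *Gfm2*. Of 20 aminoacyl-tRNA synthetases 14 fell, led by *Vars* (-0.93), *Rars* (-0.73) and *Tars* (-0.58). The genes listed as initiation factors were all those with symbols starting with Eif other than *Eif5a* and *Eif5a2*. They therefore include the Eif2ak kinases and the Eif4ebp binding proteins, which act on initiation factors. Of 47 tested 10 rose and 18 fell, with *Eif2b4* at 1.5, *Eif1a* at -1.18 and *Eif2s1* at -1.09. *Eif4ebp1*, *Eif4ebp2* and *Eif2ak3* were among those that rose, and *Eif2ak4* and *Eif4enif1* among those that fell. Of 5 termination and rescue factors 3 fell, *Gspt2* (-1.32), *Gspt1* (-0.61) and *Etf1* (-0.23). With unscaled libraries the mitochondrial factors kept their sign in 3 of 4 cases, *Gfm2* being the exception, and per muscle gene in 0 of 4. The synthetases kept it in 14 of 14 under both. The called modifying enzymes kept it in 7 and 6 of 9 and the initiation factors in 21 and 18 of 28. Both scalings moved the median of all genes down, to -0.73 and -3.19. Genes that fell, as all 14 synthetases called did, were thus set to keep their sign, and genes that rose to lose it. These counts therefore do not rank the lists by how firm they are.

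Genes that, like *Eef1a2*, are the muscle member of an isoform pair all rose. Each of 10 did so, beside 33.2% of all genes, with a median of 3.19, led by *Cox7a1* (6.09, SE 0.17, adjusted p = 3.58e-07 by edgeR), a subunit of cytochrome oxidase, *Ckm* (4.68), muscle creatine kinase, and *Atp2a1* (3.88), the calcium pump of fast fibers. *Cox7a1* went from 13.4 to 19.4 scaled CPM to 1096 and 1102. Of their broadly expressed partners, 5 rose and 3 fell among 9 tested, beside 33.2% and 32.3% of all genes, with *Cox7a2* at 1.63, *Slc25a5*, an ADP/ATP carrier, at 1.34 and *Ampd2*, an AMP deaminase, at -0.86. Scaled to the muscle genes, which rose themselves, 5 of the 10 muscle isoforms kept a positive sign, and 3 of the 8 partners called kept theirs, against 6 of 8 with unscaled libraries.

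**Figure D5:**
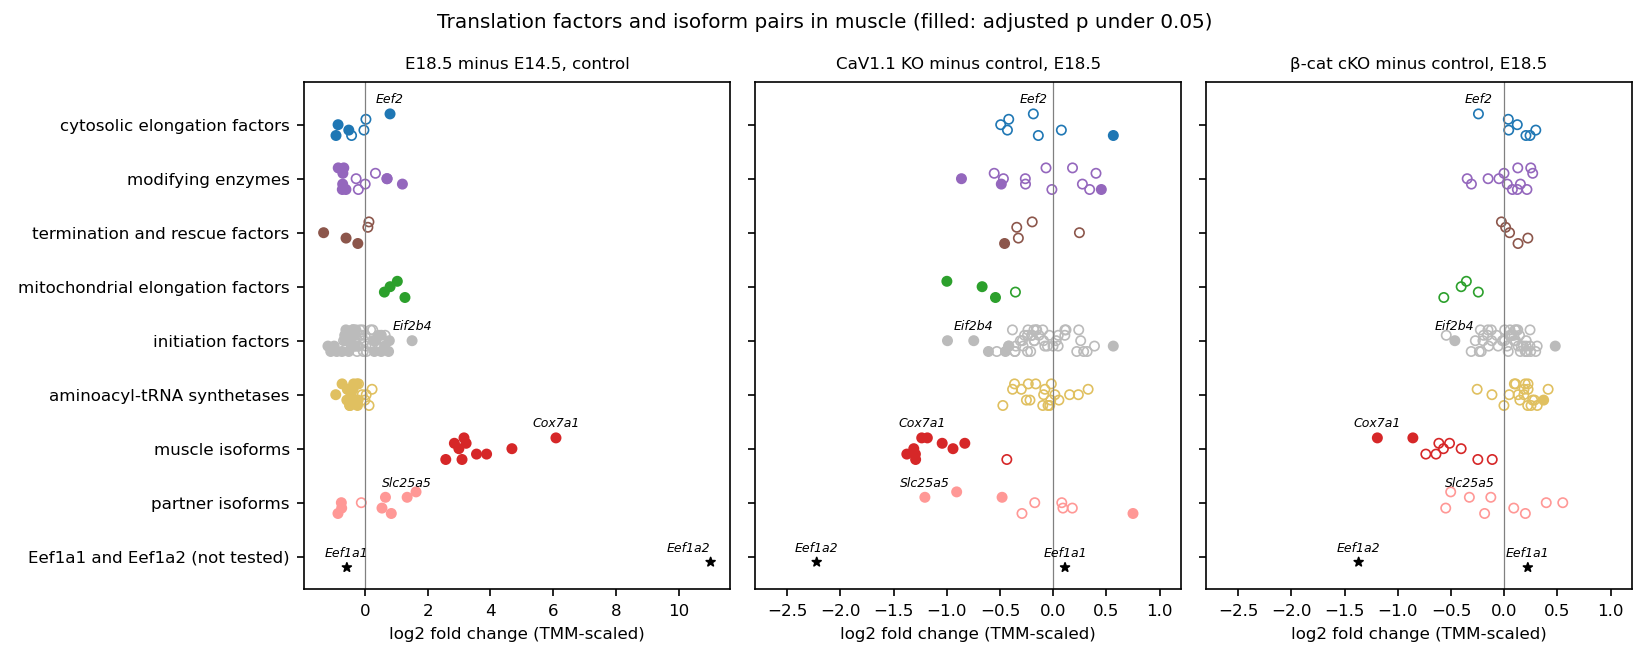
TMM-scaled log2 fold changes of *Eef1a2*, *Eef1a1* (stars, not tested) and of the genes of 8 lists, 1 circle per gene and filled at an adjusted p under 0.05, for the stages in control muscle (left) and for the CaV1.1 KO and the β-cat cKO at E18.5 (middle and right, on a wider scale). *Eef1a2* lies at 11.02, -2.22 and -1.37 and the muscle isoform *Cox7a1* at 6.09, -1.24 and -1.19. *Eif2s3y*, which had no UMI in the CaV1.1 KO, is outside the middle panel.

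In the CaV1.1 KO at E18.5, 9 of the 10 muscle isoforms and 3 of the 4 mitochondrial elongation factors fell. Called in either direction were also 1 of 7 cytosolic elongation factors, 3 of 13 modifying enzymes, 1 of 5 termination factors, 6 of 47 initiation factors and 4 of 9 partner isoforms. The median was -1.21 for the muscle isoforms and -0.61 for the mitochondrial factors, beside 0.00 over all genes. *Cox7a1* fell by 1.24, *Eno3*, muscle enolase, by 1.38 and *Tufm* by 1.0. All 9 isoforms and the 3 mitochondrial factors were lower with unscaled libraries, against 0 of 9 and 0 of 3 when scaled to the muscle genes. The cytosolic elongation factors lay between -0.49 and 0.56, with *Eefsec* (0.56, adjusted p = 0.0248 by edgeR) the 1 of 7 that rose. In the CaV1.1 KO, 27 of 115 list genes were called in all, beside 25.7% of all genes. In the β-cat cKO 5 of 115 were called, beside 8.8% of all genes, and leaving out 1 control section gave between 1 and 12. *Cox7a1* (-1.19), *Slc25a4* (-0.86), the muscle ADP/ATP carrier, and *Eif2b4* (-0.46) fell, and *Eif1a* (0.48) and *Tars* (0.37) rose. None of these 5 calls, nor of the 3 in the CaV1.1 KO at E14.5, was kept with the replicate number as a block. That fit called 81 of all 14832 genes in the β-cat cKO and 0 in the CaV1.1 KO at E14.5. Of the 5 calls, 1 was kept without E14.5 control 3 or either E18.5 control. In the CaV1.1 KO at E14.5, where 1.54% of all genes were lower and 0.533% higher (2.08% in all), 3 list genes fell, all muscle isoforms: *Ckm* by 3.54, *Ampd1* by 1.87 and *Cox7a1* by 1.62. *Ckm* was at 88.4 scaled CPM there and at 869 to 1310 in the controls. The CaV1.1 KO effect at E18.5 minus that at E14.5 was called in edgeR for 10 of 115 list genes, 2 of them positive and 8 negative, beside 2.22% of all genes positive and 4.18% negative (6.4% in all). No test of the difference was made between *Eef1a2* and these genes.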

How the data were processed

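FFPE Visium sections were sequenced and counted by the authors with Space Ranger against the mm10 mouse probe set; the deposited file headers name version 2.0.0 for 3 sections (E14.5 controls 1 and 2 and the CaV1.1 KO at E14.5) and 2.0.1 for the other 5. The deposited values are raw UMI counts per probe-targeted gene and spot under tissue, not normalized. Tissue enrichment tables and image scale factors were not used. *Eef1a2*, the lists of genes and the positions compared were chosen with earlier results of these data known.

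Spots with at least 1000 UMIs were kept. Muscle spots were those above an Otsu threshold of the mean log-normalized level of 9 muscle genes in a section. Counts of muscle spots were summed per section and fitted with edgeR 4.0.16 (R 4.3.3, quasi-likelihood, TMM scaling) over 8 sections in 5 groups with 3 residual degrees of freedom and 14832 genes after its expression filter; p-values were Benjamini-Hochberg adjusted over all of them with a threshold of 0.05. CPM are UMIs per 1000000 UMIs of the same spots, and intervals are exact (95%) and cover counting error only. For a count of 0 the upper end of that interval is given. Sections held 14179161 to 82859104 UMIs under tissue, with a median of 15434 to 45284 per spot. Spot barcodes name fixed slide positions, of which any pair of sections shared 150 to 2151. At E14.5 *Eef1a2* did not pass the expression filter in region sums, so the CPM difference replaced the planned fit. Named genes were *Eef1a2* and *Eef1a1*, the cytosolic elongation factors called, the 3 genes of each list with the largest fold among those called between the stages, the 10 genes most like *Eef1a2* and the targeted genes; others, such as *Eif2s3y*, were named after their values were seen. *Eif5a* and *Eno1* are not among the genes analysed here. Gene models and coding sequences were from GENCODE M21 (GRCm38). The fit was tested on simulated data for the stage comparison, on 14261 genes, where 100 of 200 genes were changed by a log2 fold of 2, of which 100% were recovered, and 100 by a log2 fold of 1, of which 89.0% were. Alternatives changed the scaling (unscaled, muscle genes), the filter, the tool (DESeq2 1.42.0), the spots, the regions and the replicate block, or left out 1 section.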

Additional observations from a re-analysis of the deposited data

Results flagged for a closer look

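The difference between the CaV1.1 KO effects at E18.5 and at E14.5, taken as an interaction in the edgeR fit, passed an adjusted p of 0.05 for 10 of 115 list genes, beside 6.4% of all genes, with 1 mutant section at each stage. It was negative for *Slc25a5* (-1.54), *Tufm* (-1.17), *Eif3m* (-1.05), *Slc25a4* (-1.0), *Dph3* (-0.94), *Eif1* (-0.77), *Tsfm* (-0.72) and *Etf1* (-0.69). It was positive for *Ampd2* (0.67) and for *Ckm* (2.22), whose log2 fold change was -3.54 at E14.5 and -1.31 at E18.5.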

How the results depend on the processing

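For *Eef1a2* the direction of every comparison that was re-run held under all alternatives run for it. DESeq2 was used for the counts of list genes only and gave no value for *Eef1a2*. The size of its fold between the stages and in the E18.5 mutants depended on the scaling. Distance bins, neuron-rich spots, and the regions and fiber ranks of the mutants were not re-run. Muscle against other spots was re-run in the E18.5 controls with other choices of spots and with 1 section left out, but not with another scaling. With unscaled libraries the log2 fold change was 10.31 between the stages, -1.68 in the CaV1.1 KO and -1.15 in the β-cat cKO at E18.5, and -0.52 in the MTJ region. Scaled to the 9 muscle genes these values were 7.87, -0.82, -0.84 and -0.29, that of the NMJ region was -0.073 and that of fast-rich against slow-rich spots 0.20. Over all spots they were 9.93, -2.51 and -1.66. In the 50% of muscle spots with the highest muscle score, the mutants gave -2.10 and -1.21, and the CaV1.1 KO at E14.5 gave -5.67, where it held no UMI and the value is no bound. Regions of 10% and 25% gave -0.83 and -0.52 for the MTJ region. Fast-rich against slow-rich spots gave 0.61 with 10% at each end and 0.25 with 50%. At E14.5 the NMJ minus MTJ difference of -0.81 CPM was -1.04 and -0.37 with regions of 10% and 25%, -0.19 with regions by distance from other spots, and -1.21 to -0.61 with 1 section left out. *Eef1a1* in the MTJ region turned to 0.030 (unscaled) and 0.26 (muscle genes).

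List genes called changed by more than 1.5 times in the mutants only. With unscaled libraries 65 were called in the CaV1.1 KO and 32 in the β-cat cKO at E18.5, beside 7997 and 2826 of 14832 genes. Scaled to the muscle genes, the counts were 69 in the CaV1.1 KO at E14.5 and 103 and 49 at E18.5. Of all genes 4939, 12468 and 3886 were called on that scale, against 308, 3819 and 1305 in the main fit. All spots gave 5 in the CaV1.1 KO at E14.5 and 15 in the β-cat cKO, beside 324 and 1908 of 15625 genes. DESeq2 gave 9 and 14, beside 710 and 1542 of 19076 genes. Calls over all genes thus moved too, and these counts are not a result about the lists.

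Leaving out 1 control section gave 69 to 77 list genes between the stages, 2 to 5 in the CaV1.1 KO at E14.5, 21 to 31 at E18.5 and 1 to 12 in the β-cat cKO, with 12 without E14.5 control 1, 2 without E14.5 control 2 or E18.5 control 1 and 1 without E14.5 control 3 or E18.5 control 2. *Eef1a1* in the CaV1.1 KO at E18.5 ranged from -0.022 (without E18.5 control 2) to 0.26. *Eef1a2* ranged from 10.85 to 11.28 between the stages, -2.27 to -2.17 in the CaV1.1 KO at E18.5 and -1.42 to -1.32 in the β-cat cKO. Calls over all genes also differed between these fits, so the list counts are not a result about the lists. The cause of these differences was not tested.

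With the replicate block the list genes called by edgeR were 83 between the stages and 23 in the CaV1.1 KO at E18.5. Of all 14832 genes, 8972 and 2863 were called there. In the CaV1.1 KO at E14.5 and the β-cat cKO 0 list genes were called, beside 0 and 81 of all genes. The loss was thus not particular to the lists. An unadjusted p under 0.05 was found for 13 and 24 list genes. The share of all genes at that p was not counted, so 13 and 24 say nothing about the lists. Deviations of same-numbered control sections correlated at -0.36 and -0.34. With 2 E18.5 controls the deviations at that stage mirror each other, so these values are not independent. Whether same-numbered sections share a batch was not tested. Scaling, block and filter alternatives were not run for *Eef1a2* regions at E14.5, where 26 UMIs set the depth.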
